A study of Rattus norvegicus with 3 samples.

Results

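Genes of voltage-gated and potassium channels were examined in rat soleus, a slow postural muscle of the hind limb. The set held every gene whose platform symbol begins with Kcn or Cacn, or with Scn or Clcn and a digit, and comprised 125 of the 14506 genes that a probe set with a single symbol represents on the array. Of these, 11 belonged to sodium, 83 to potassium, 24 to calcium and 7 to chloride channels, auxiliary subunits included. Group DN was denervated and irradiated, group TS was suspended by the tail and irradiated, and the control group Ct was irradiated only. The radiation was continuous over 2 weeks and reached 50 mSv in each group, so no group was free of it. Rats of a strain labelled Brown entered the study at 7 weeks of age. Each group had 6 rats, whose RNA was combined and read on 1 array (Affymetrix Rat Gene 1.0 ST), so there was no spread between samples, no test between groups could be run, and every difference describes these pools. The site and method of denervation are not given in the labels. In bulk tissue, fewer cells of a type and less RNA per cell cannot be told apart.

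A muscle fibre fires when sodium channels open, and it returns to rest through potassium and chloride channels. The action potential spreads into the transverse tubules, where the voltage-gated calcium channel complex acts as the sensor that releases calcium from the sarcoplasmic reticulum. Chloride conductance is unusually large in skeletal muscle membrane and damps its excitability, and muscle that has lost its nerve is known for a changed set of channels, with spontaneous firing and a small-conductance calcium-activated potassium current.

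The tissue and treatment labels were checked against their markers. All 9 muscle fibre markers gave high values on every array, between 12.05 and 13.99 on the log scale of the deposited values, read here as log2 (RMA, a summary over the probes of a probe set). Ckm, muscle creatine kinase, was lower in DN (-1.12 against Ct), none of the other 8 differed from Ct by 1.5-fold in DN or TS, and the median over the 9 was -0.21 in DN minus Ct and -0.15 in TS minus Ct. Their summed linear values were 75999.5 in DN, 84142 in TS and 91093 in Ct, and the part of this in the lower channel genes of DN was not tested. Chrng, the fetal acetylcholine receptor subunit known to return after denervation, read 11.64 in DN, 7.08 in TS and 6.88 in Ct. The array medians were 6.33 in DN, 6.35 in TS and 6.32 in Ct, but over the 10154 genes bright enough to compare the TS median lay 0.13 above that of Ct, and the DN median 0.01 above it.

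Of the 125 channel genes, 71 had a mean over the 3 arrays at or above 5.72, the 30th percentile of all genes, and entered the counts. These were 6 sodium, 45 potassium, 14 calcium and 6 chloride channel genes. Only Cacnb4 passed with a single array above that limit (5.82 in TS). The other 54 channel genes had means from 4.13 to 5.72, and 38 of them read the same on all 3 arrays. The summary step used on the deposited values can return identical numbers for several arrays, and among the 71 genes 33 were equal in DN and Ct, 21 in TS and Ct and 18 on all 3 arrays. Equal values are thus no evidence of equal expression. Among all 10154 genes, 42.9% were equal in DN and Ct and 24.7% in TS and Ct, against 46.5% and 29.6% of the channel genes.

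In denervated soleus, 8 channel genes were at least 1.5-fold lower than in Ct and 5 were at least 1.5-fold higher. The lower genes were the sodium channel subunit Scn4b, the chloride channel Clcn1 and the potassium channel genes Kcnj13, Kcna7, Kcnj2, Kcna5, Kcnj8 and Kcnj11. The higher genes were the potassium channel genes Kcnn3, Kcnq5, Kcnf1 and Kcnab1 and the calcium channel subunit Cacnb1. The lower genes made up 11.3% of the 71, against 5.53% of all 10154 genes, and the higher genes 7.04%, against 4.93%. At a 2-fold limit 6 channel genes were lower and 4 higher, where 2.24% of all genes were lower and again 2.24% higher. The median difference of DN minus Ct was 0.00 over the channel genes and 0.00 over all genes.

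In suspended soleus fewer channel genes differed from Ct. The 6 genes at least 1.5-fold higher were Kcnq5, Scn3b, Kcna7, Cacnb1, Cacng6 and Kcnn3, and 1 gene, Kcnj13, was at least 1.5-fold lower. They made up 8.45% and 1.41% of the 71 channel genes, against 5.89% higher and 2.68% lower among all genes. The share of lower genes rests on 1 gene, too few to set it apart from that of all genes. Past 2-fold were Kcnq5 and Scn3b (higher) and Kcnj13 (lower), where 1.37% of all genes were higher and 0.689% lower. The median of TS minus Ct was 0.00 over the channel genes and 0.02 over all genes. When each array was centred on its median over the compared genes, the TS minus Ct differences of Kcna7 (0.57), Cacnb1 (0.55), Cacng6 (0.49) and Kcnn3 (0.49) came under the 1.5-fold limit and that of Scn4b (-0.64) went past it, and among all genes 3.52% were then higher and 3.94% lower.

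**Figure D1:**
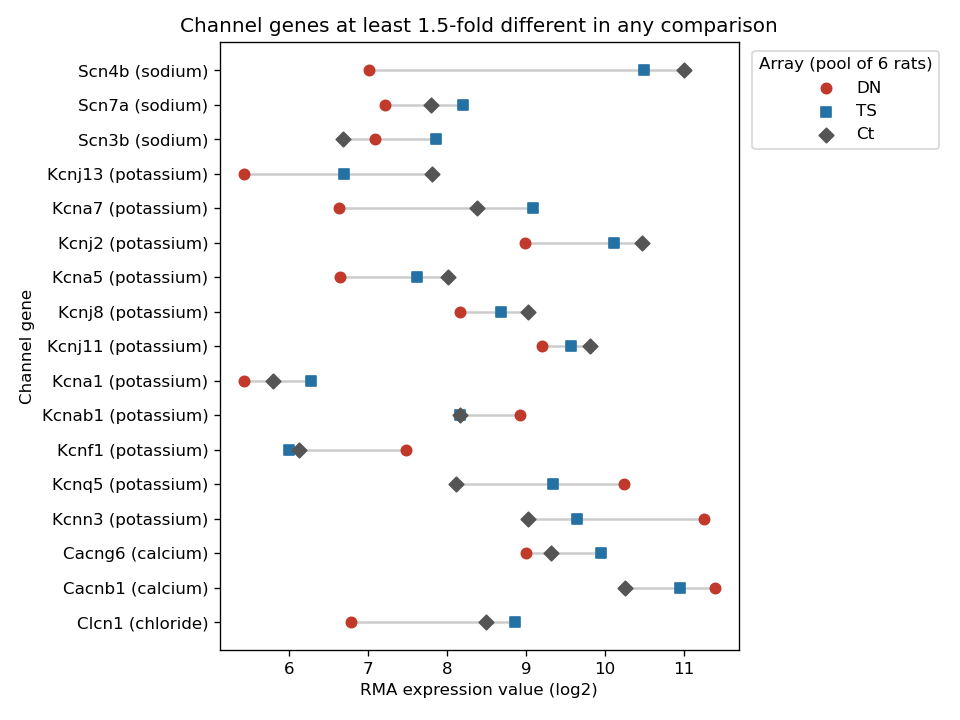
RMA expression values (log2, horizontal axis) of the 17 channel genes that differed by at least 1.5-fold in any of the 3 comparisons, with 1 point for each array (DN, TS and Ct, each a pool of 6 rats) and a grey line over their range. Scn4b spans 7.01 in DN to 11.00 in Ct, and Kcna7 and Clcn1 are lowest in DN and highest in TS.

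**Figure D2:**
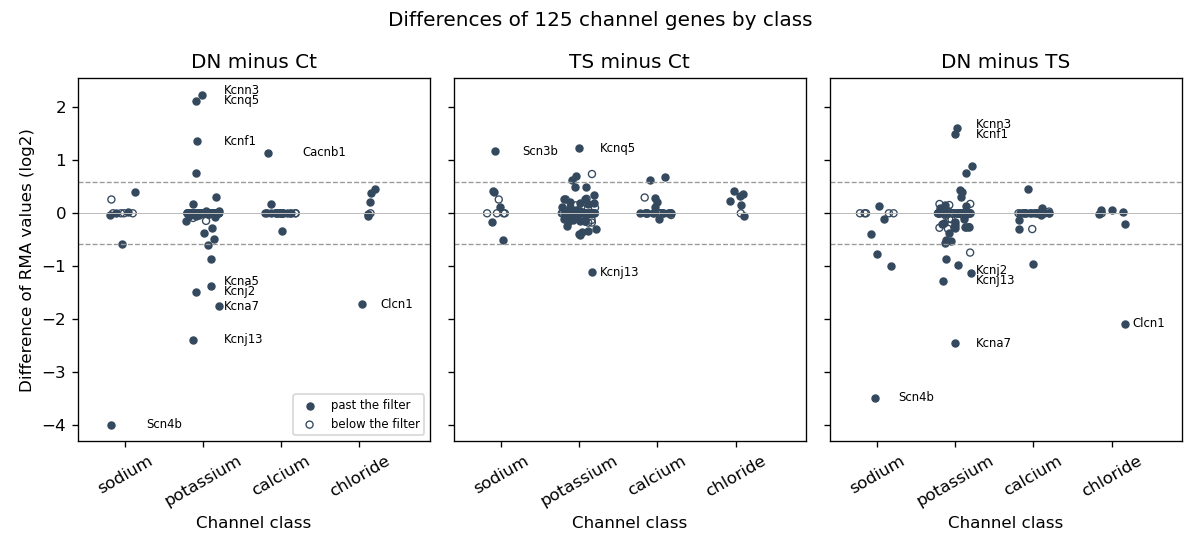
Differences of RMA values (log2, vertical axis) of all 125 channel genes by class in 3 panels (DN against Ct, TS against Ct, DN against TS), 1 point for each gene, filled where the gene passed the filter and open where it did not; points are spread sideways for legibility, and dashed lines mark 1.5-fold. Most genes lie near 0, and the lowest point in both comparisons of DN is Scn4b, at -3.99 against Ct and -3.49 against TS.

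Promoter sequences from RefSeq (GRCr8) were matched by symbol for 90 of the 125 channel genes. The 250 bases before the annotated start are printed for the 5 genes with the largest DN minus Ct differences among those with an entry, which are Scn4b, Kcnj13 and Clcn1 among the lower genes and Kcnn3 and Kcnq5 among the higher. They lie at chr8:54343623-54343872 (plus strand), chr9:95518987-95519236 (minus strand), chr4:72138928-72139177 (plus strand), chr2:177234090-177234339 (plus strand) and chr9:31891282-31891531 (minus strand). Each is written 5′ to 3′ on the strand of its gene, with matches to 4 motifs in capitals. The motifs, searched on both strands, were the E-box CAGCTG, the RUNX motif TGTGGT, the TATA motif TATAAA and the MEF2 motif.
Scn4b: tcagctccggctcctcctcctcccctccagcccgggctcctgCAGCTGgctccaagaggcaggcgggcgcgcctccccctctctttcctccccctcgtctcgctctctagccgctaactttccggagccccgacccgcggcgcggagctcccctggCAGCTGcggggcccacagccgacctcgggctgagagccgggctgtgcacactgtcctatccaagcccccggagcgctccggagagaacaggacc
Kcnj13: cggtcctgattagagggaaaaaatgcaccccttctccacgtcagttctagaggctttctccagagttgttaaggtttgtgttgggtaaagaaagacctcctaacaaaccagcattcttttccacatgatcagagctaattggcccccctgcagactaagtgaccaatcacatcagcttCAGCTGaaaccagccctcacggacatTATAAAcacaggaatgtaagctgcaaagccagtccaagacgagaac
Clcn1: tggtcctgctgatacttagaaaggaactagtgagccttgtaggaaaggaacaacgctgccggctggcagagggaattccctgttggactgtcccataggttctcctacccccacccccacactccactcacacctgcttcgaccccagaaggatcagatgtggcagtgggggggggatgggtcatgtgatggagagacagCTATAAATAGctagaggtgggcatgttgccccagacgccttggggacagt
Kcnn3: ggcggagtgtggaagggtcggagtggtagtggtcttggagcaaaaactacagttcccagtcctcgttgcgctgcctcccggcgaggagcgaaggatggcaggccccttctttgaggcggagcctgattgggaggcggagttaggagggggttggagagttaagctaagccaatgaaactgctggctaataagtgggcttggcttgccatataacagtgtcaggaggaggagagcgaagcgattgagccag
Kcnq5: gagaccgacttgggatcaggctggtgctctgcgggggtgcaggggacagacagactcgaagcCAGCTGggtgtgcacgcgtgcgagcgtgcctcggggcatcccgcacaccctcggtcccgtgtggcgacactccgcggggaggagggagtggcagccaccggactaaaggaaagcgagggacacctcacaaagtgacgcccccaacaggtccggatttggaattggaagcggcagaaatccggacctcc

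The Scn4b window held 2 E-boxes, which began 208 and 94 bases before the start, Kcnj13 held 1 at 72 bases and Kcnq5 held 1 at 188 bases. Kcnj13 also held TATAAA at 46 bases. Clcn1 held a MEF2 motif at 50 bases, and the TATAAA match of that gene lies inside it. The Kcnn3 window held none of the 4 motifs. Of the channel genes at least 1.5-fold different in DN minus Ct, 10 had an entry, and the E-box was found in 4 of the 6 lower (Scn4b, Kcnj13, Kcnj2 and Kcna5) and 2 of the 4 higher (Kcnq5 and Kcnf1). It was present in 9 of 38 other channel genes past the filter, in 20 of all 90, and in 11.9% of 27457 promoters of the table. TGTGGT was found in 0 of these 10, in 12 of the 90 and in 14.1% of the table, TATAAA in 5 of the 90 and 13.1% of the table, and the MEF2 motif in 2 of the 90 and 3.07% of the table. A match is a description of the letters and no site of binding. The share of G and C was 71.6% in Scn4b, 46.8% in Kcnj13, 56.0% in Clcn1, 57.2% in Kcnn3 and 65.2% in Kcnq5, and the median over the table was 52.0%.

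Among sodium channel genes, the auxiliary subunit Scn4b accounted for the largest difference of the whole channel set. Scn4b encodes the beta4 subunit, a membrane protein that is bound to the channel pore and tunes its gating. It read 7.01 in DN, 10.50 in TS and 11.00 in Ct. The DN array stood far below the others, with DN minus Ct at -3.99 (log2, 15.9-fold) and DN minus TS at -3.49 (11.2-fold), and the first of these ranked 5 from the lowest of 10154 genes. TS minus Ct was -0.50. Scn3b, the gene of the beta3 subunit, had another order, with 7.09 in DN, 7.86 in TS and 6.69 in Ct. It was highest in TS, by 1.17 (2.25-fold) over Ct, while DN exceeded Ct by 0.40. The pore-forming Scn4a, the main sodium channel of adult skeletal muscle, read 8.99 in DN, 9.39 in TS and 8.97 in Ct. DN and Ct thus gave almost the same value for the pore gene, whose DN minus Ct difference was 0.02, beside the drop of Scn4b.

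Scn7a encodes an atypical sodium channel that is regarded as a sodium sensor. It read 7.21 in DN, 8.20 in TS and 7.79 in Ct. Its DN minus Ct difference of -0.58 lay just short of 1.5-fold, and its DN minus TS difference was -0.99. Scn7a is also known from Schwann cells. Of 13 Schwann cell and nerve markers, 11 had a probe set and 8 passed the filter, of which 2 (Egr2 and Cnp) were at least 1.5-fold higher and 0 lower in DN than in Ct, while in TS 1 (Prx) was higher and 1 (Egr2) lower. Among all genes 4.93% were higher and 5.53% lower in DN, and 5.89% higher and 2.68% lower in TS. Prx had the same order as Scn7a, with 6.38 in DN, 7.36 in TS and 6.69 in Ct, but no other marker past the filter had it. Cnp read 9.68 in DN, 9.39 in TS and 8.89 in Ct, and S100b read 8.25 in DN, 8.15 in TS and 7.94 in Ct. Egr2 read 7.55 in DN, 6.14 in TS and 6.96 in Ct. In DN minus TS, Egr2 was higher and Prx lower. The summed linear values of these markers were 4092 in DN, 4425 in TS and 3646 in Ct, Mag, Nefl and Nefm read below the filter limit, Sox10 and Mbp were equal on all 3 arrays, and the part of these cells in the Scn7a values was not tested. Scn1a, a channel best known from neurons, differed little, with 7.91 in DN, 7.78 in TS and 7.95 in Ct. Scn3a stood at 6.55 in DN, 6.66 in TS and 6.55 in Ct. The remaining sodium channel genes (Scn2a, Scn2b, Scn8a, Scn10a and Scn11a) read below the filter limit on average, and 4 of these 5 were equal on all 3 arrays.

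The inward rectifiers, which carry potassium near the resting potential, had 15 genes on the array and 9 past the filter. In DN 4 of the 9 were at least 1.5-fold lower and 0 higher, and in TS 1 was lower and 0 higher, where 5.53% of all genes were lower in DN and 2.68% in TS. Kcnj2, whose product Kir2.1 is a main carrier of the resting potassium conductance of muscle fibres, read 8.99 in DN, 10.12 in TS and 10.47 in Ct. DN was the low array, with DN minus Ct at -1.49 (2.80-fold) and DN minus TS at -1.13, whereas TS minus Ct was -0.35. Its relative Kcnj12 (Kir2.2) read 8.68 in DN, 8.88 in TS and 8.68 in Ct, with equal values in DN and Ct. Kcnj13, the gene of Kir7.1, a rectifier of small conductance known mainly from epithelia, read 5.42 in DN, 6.70 in TS and 7.81 in Ct. It was the lowest potassium channel difference in DN (-2.38, 5.22-fold) and the only channel gene at least 1.5-fold lower in TS (-1.11, 2.16-fold). Its DN value lay below the filter limit, where the size of a difference is less certain.

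Kcnj11 and Kcnj8 encode Kir6.2 and Kir6.1, the pores of ATP-sensitive potassium channels, which couple membrane potential to energy state. Kcnj11 read 9.21 in DN, 9.58 in TS and 9.81 in Ct, a DN minus Ct difference of -0.60 that is just past 1.5-fold. That difference came to -0.58 and ended the call when 32 was added on the linear scale. Kcnj8 read 8.16 in DN, 8.69 in TS and 9.03 in Ct, with DN minus Ct at -0.87 (1.82-fold). The values of the partner subunits of these pores, the sulfonylurea receptors, differed less, though equal values are no evidence of equal expression. Abcc9 was equal on all arrays at 10.33, and Abcc8 read 6.42 in DN, 6.42 in TS and 6.73 in Ct.

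Kcnj8 is also a marker of pericytes and vascular smooth muscle. Of 9 smooth muscle and pericyte markers, 9 passed the filter, and 2 (Tagln and Cspg4) were at least 1.5-fold lower in DN and 0 higher. Among all genes 5.53% were lower in DN. The DN minus Ct differences of the 9 ran from -0.83 to 0.00, with a median of -0.22. Pdgfrb and Acta2 were equal in DN and Ct, and Notch3 differed by -0.03. The summed linear values of the 9 were 9632 in DN, 10435 in TS and 10973 in Ct. Of 8 endothelial markers measured, 2 (Kdr and Flt1) were at least 1.5-fold lower in DN and 0 higher, against the same 5.53% of all genes. Their DN minus Ct differences ran from -0.87 to 0.00, with a median of -0.30, and their sums were 5149 in DN, 5782 in TS and 6745 in Ct. No defining marker of either list was below the filter limit, and the part of these cells in the Kcnj8 values was not tested. The remaining inward rectifiers past the filter, Kcnj4, Kcnj9, Kcnj10 and Kcnj14, had DN minus Ct differences from 0.00 to 0.18 and TS minus Ct differences from -0.30 to 0.34.

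Voltage-gated potassium channel genes went in both directions in DN. Of 35 alpha subunit genes, some of which, like Kcnf1, form no channel alone, 15 passed the filter. Of these, 2 were at least 1.5-fold higher in DN and 2 lower, where 4.93% of all genes were higher and 5.53% lower. Kcna7, a delayed rectifier (Kv1.7) of heart and skeletal muscle, read 6.63 in DN, 9.09 in TS and 8.38 in Ct. It was low in DN (-1.75, 3.37-fold) and high in TS (0.70, 1.63-fold). Kcna5 (Kv1.5) read 6.64 in DN, 7.62 in TS and 8.01 in Ct. It was lowest in DN (-1.37 against Ct, 2.58-fold), while TS minus Ct was -0.39. Kcna1 read 5.42 in DN, 6.28 in TS and 5.79 in Ct. Kcna1 was close to the filter limit, and its difference of DN minus TS (-0.86) came under 1.5-fold when 32 was added on the linear scale.

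Kcnq5 (Kv7.5), an M-type channel that opens at subthreshold potentials and is expressed in brain and muscle, read 10.24 in DN, 9.34 in TS and 8.12 in Ct. Both treated arrays were above Ct, DN by 2.13 (4.36-fold) and TS by 1.23 (2.34-fold), and DN exceeded TS by 0.90. Of 7 adipocyte markers, 3 (Adipoq, Cidec and Cfd) were at least 1.5-fold higher in DN and in TS than in Ct, with 0 lower and none below the filter limit. Among all genes 4.93% were higher in DN and 5.89% in TS. Plin1 and Lep were higher than Ct by less than 1.5-fold in DN and TS. Fabp4, the brightest of the 7, differed from Ct by -0.02 in DN and -0.43 in TS, and Lipe was equal in DN and Ct. The summed linear values of the 7 markers were 5336 in DN, 4524 in TS and 3895 in Ct, and the part of adipocytes in the Kcnq5 values was not tested. Kcnf1 encodes Kv5.1, a silent subunit that forms no channel alone and modifies Kv2 channels. It read 7.48 in DN, 5.99 in TS and 6.12 in Ct. DN alone was high, by 1.36 over Ct (2.57-fold) and by 1.49 over TS. Kcnab1, a cytoplasmic beta subunit that speeds inactivation of Kv1 channels, read 8.92 in DN and 8.16 in both TS and Ct. It was the only one of 8 auxiliary potassium channel genes past the filter that differed by 1.5-fold in DN (0.76, 1.69-fold). Of the relatives of Kcnq5 and Kcnab1, Kcnq1 read 6.88 in DN, 7.06 in TS and 6.88 in Ct, and Kcnab2 was equal on all arrays at 5.97. These equal values are no evidence of equal expression.

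Kcnn3 had the largest positive difference of any channel gene in DN. Its product SK3 is the small-conductance calcium-activated channel known to appear in denervated muscle fibres. Kcnn3 read 11.26 in DN, 9.65 in TS and 9.03 in Ct. DN was highest, by 2.23 (4.71-fold) over Ct and by 1.61 (3.05-fold) over TS, and TS exceeded Ct by 0.62 (1.54-fold). In DN minus Ct it ranked 49 from the highest of 10154 genes, and Kcnq5 ranked 55. Other calcium- or sodium-activated genes differed less. Kcnma1, the large-conductance BK channel, read 10.25 in DN, 9.80 in TS and 9.94 in Ct, and its smooth muscle partner Kcnmb1 read 6.59 in DN, 6.63 in TS and 6.65 in Ct. Kcnn4, the intermediate-conductance channel of blood cells and endothelium, read 6.59 in DN, 7.09 in TS and 6.59 in Ct. Of 8 macrophage markers, 3 (Cd163, Mrc1 and Adgre1) were at least 1.5-fold higher in TS and 0 lower, with summed linear values of 5165 in DN, 6297 in TS and 4448 in Ct and no marker below the filter limit, and their part in the Kcnn4 value was not tested. Among all genes 5.89% were higher in TS.

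Two-pore potassium channels, which carry leak current, had 6 of 11 genes past the filter, and none of these 6 differed by 1.5-fold in any comparison. Kcnk2, the mechanically gated TREK-1, was the lowest of them in DN, with 6.41 in DN, 6.97 in TS and 6.90 in Ct. The remaining 5 were equal in DN and Ct, and their TS minus Ct differences ran from -0.14 to 0.22.

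Among 14 calcium channel genes past the filter, Cacnb1 was at least 1.5-fold higher in DN and TS than in Ct, and Cacng6 was higher in TS than in Ct and lower in DN than in TS. Cacnb1 encodes the subunit that brings the pore of the skeletal muscle channel to the transverse tubule and couples it to calcium release. It read 11.40 in DN, 10.95 in TS and 10.26 in Ct. Both treated arrays were above Ct, DN by 1.14 (2.20-fold) and TS by 0.69 (1.61-fold). The other auxiliary subunits of the same complex showed smaller differences. Cacna2d1 read 11.39 in DN, 11.42 in TS and 11.21 in Ct, and the gamma1 subunit gene Cacng1 read 11.87 in DN, 12.16 in TS and 11.87 in Ct. Cacng6, the gamma6 subunit that resembles gamma1, read 8.996 in DN, 9.95 in TS and 9.32 in Ct. It was highest in TS and lowest in DN, with TS minus Ct at 0.63, DN minus Ct at -0.33 and DN minus TS at -0.95.

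Of 9 calcium channel pore genes analysed, 3 passed the filter. Cacna1c (the cardiac and smooth muscle pore) at 5.87 and Cacna1h (a T-type pore) at 6.20 were equal on all arrays, and Cacna1g read 6.47 on each. The pore gene of the skeletal muscle channel, Cacna1s, was not analysed here, and neither were Kcnn2 and Kcnk5. Of the 14 calcium channel genes past the filter, 10 were equal in DN and Ct.

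Of 6 chloride channel genes past the filter, Clcn1 alone differed by 1.5-fold. Clcn1, the channel behind the resting chloride conductance of muscle fibres, whose loss causes myotonia, read 6.78 in DN, 8.87 in TS and 8.50 in Ct. It was low in DN, with DN minus Ct at -1.72 (3.28-fold) and DN minus TS at -2.09 (4.24-fold), while TS exceeded Ct by 0.37. The 5 genes of endosomal and lysosomal chloride transporters, Clcn3 to Clcn7, all passed the filter, and none of them differed by 1.5-fold. Their median was 0.22 in DN minus Ct and 0.23 in TS minus Ct. Clcn4 read 8.47 in DN, 8.44 in TS and 8.01 in Ct, and Clcn5 read 8.20 in DN, 8.13 in TS and 7.81 in Ct. Clcn7, the lysosomal transporter, read 8.03 in DN, 8.03 in TS and 7.81 in Ct. DN and TS were thus nearly level in these 3 genes, with both above Ct, whereas Clcn3 read 8.55 in DN, 8.49 in TS and 8.55 in Ct. Clcn2 read 5.58 on all arrays.

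Set directly against each other, DN and TS differed by at least 1.5-fold in 14 channel genes, of which 10 were lower in DN and 4 higher. The lower genes made up 14.1% of the 71, against 5.93% of all genes, and the higher genes 5.63%, against 3.2%. At 2-fold, 5 were lower (Scn4b, Kcna7, Clcn1, Kcnj13 and Kcnj2), where 1.74% of all genes were lower, and 2 were higher (Kcnn3 and Kcnf1), where 1.2% of all genes were higher. Scn4b ranked 2 and Kcna7 ranked 11 from the lowest of 10154 genes. For Kcna7, DN minus TS was -2.46 (5.49-fold). The 4 genes higher in DN than in TS were Kcnn3, Kcnf1, Kcnq5 and Kcnab1.

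**Figure D3:**
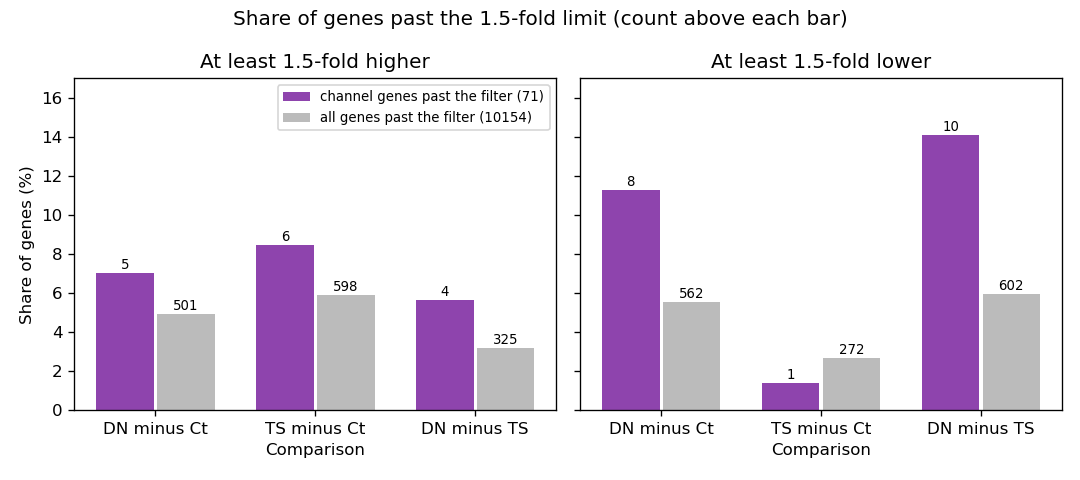
Share of genes (%, vertical axis) at least 1.5-fold higher (left) and lower (right) in each of the 3 comparisons (DN with Ct, TS with Ct, DN with TS), in the 71 channel genes and in all 10154 genes past the filter; the number above a bar is the count of genes. The channel genes exceed all genes most in the lower direction of DN minus TS, at 14.1% against 5.93%. In the lower direction of TS minus Ct their share of 1.41% is a single gene, against 2.68% of all genes.

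**Figure D4:**
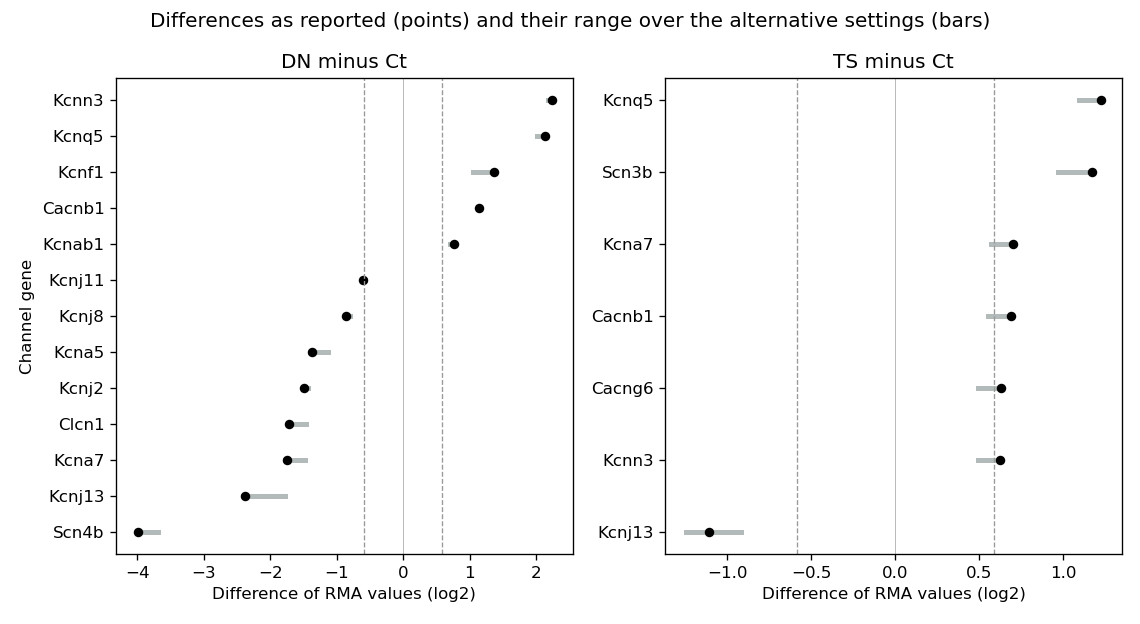
Differences of RMA values (log2, horizontal axis) of the channel genes past 1.5-fold in DN minus Ct (left) and TS minus Ct (right). Points are the values as reported, bars span the alternative settings of scaling, filter and probe set, and dashed lines mark 1.5-fold; in DN minus Ct only the bar of Kcnj11 crosses that line, while in TS minus Ct those of Kcna7, Cacnb1, Cacng6 and Kcnn3 do.

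Other genes of membrane excitability were taken from a list of 68 pumps, receptors, anchors and further channels, of which 55 had a probe set and 50 passed the filter. In DN 5 of the 50 were at least 1.5-fold higher and 7 lower, and in TS 4 were higher and 3 lower. Among all genes these shares were 4.93% higher and 5.53% lower in DN, and 5.89% higher and 2.68% lower in TS. Their median difference from Ct was 0.00 in DN and 0.04 in TS. Lgi1, a secreted protein that modulates Kv1 channels in neurons, read 5.02 in DN, 7.44 in TS and 9.52 in Ct. Its DN value lay below the filter limit, where the size of a difference is less certain. Lynx1, a membrane-tethered modulator of acetylcholine receptors, read 6.18 in DN, 8.48 in TS and 9.37 in Ct. Both were lowest in DN and intermediate in TS. Sntb1, a syntrophin of the dystrophin complex, which anchors sodium and potassium channels, read 9.26 in DN, 7.65 in TS and 7.29 in Ct, and Dmd (dystrophin itself) read 10.81 in DN, 10.11 in TS and 9.74 in Ct. Ryr1, the calcium release channel that the calcium channel complex controls, read 11.08 in DN, 11.79 in TS and 10.71 in Ct. It was highest in TS, by 1.08 over Ct. Of 7 genes listed by name under the sodium-potassium pump and FXYD, Atp1b4 was lower in DN (-1.22) and the pump regulator Fxyd1 was lower in TS (-0.61). The DN value of Atp1b4 (5.58) lay below the filter limit, and a role of its product in the pump was not examined. In DN minus Ct, Atp1b1 gave -0.26 and Atp1b3 gave 0.29, and Atp1b2 was equal in both. The genes named from this list were chosen after seeing their values. Clic5 (-1.53), Ank1 (-1.26) and Tmem38b (1.15) also differed by at least 2-fold in DN minus Ct.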

How the data were processed

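The authors deposited expression values on a log scale, read here as log2, for 3 arrays, made, per the submitters' processing notes and the labels, with Affymetrix Expression Console by RMA in a core-exon analysis; the base of the logarithm, the program version, its annotation and any genome build were not given in the sources used here. The values ran from 1.77 to 13.99. The design text names 2 arrays, and 3 were used here, grouped by their source labels. Of 29170 probe sets, 15310 had 1 gene symbol in the platform annotation, 323 had several and 13537 none; those with 1 symbol were used, and the brightest by mean represented a gene. All 125 channel genes were found by identifier in a GRCr8 table under the same symbol. Genes at or above the 30th percentile of the mean (5.72) were compared as differences of log2 values and counted at 1.5-fold and 2-fold. With 1 array a group no p-value was computed, and the number of arrays limits the precision. The channel genes and all lists were chosen with earlier results of these data known. Named by rule were members past the filter and 1.5-fold in any comparison, the 3 brightest of each class and 32 muscle and denervation channel genes, of which 6 were not analysed here; any further member was chosen after seeing its values. Close relatives may share probe signal. Alternatives were 3 scalings, 32 added on the linear scale, 2 filters, 2 probe set rules and the 2-fold limit, and, added after seeing the data, centring over the compared genes and leaving out equal values. The procedure was tested on simulated data with independent noise of a chosen size and no equal values. That test checks the computation and gives no error for a difference between single arrays. Python 3.11.15, numpy 2.4.6, pandas 2.3.3, statsmodels 0.14.6 and matplotlib 3.10.9 were used.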

Additional observations from a re-analysis of the deposited data

How the results depend on the processing

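No paired analysis was possible because each group had 1 array. Of 13 named differences past 1.5-fold in DN minus Ct, the call of Kcnj11 ended with 32 added on the linear scale. A filter at the 50th percentile kept 26 channel genes and left out Kcnf1 and Kcnj13 (4 higher and 7 lower). Among all genes past that filter 5.71% were higher and 6.95% lower. The 2-fold limit left out Kcnab1, Kcnj8 and Kcnj11 (4 higher and 6 lower of 71), where 2.24% of all genes were higher and 2.24% lower. Scn7a passed 1.5-fold under quantile normalization and both centrings (over all probe sets or the compared genes), but not under loess. No named difference past the limit changed sign in any comparison. In TS minus Ct, quantile normalization and loess each left 4 genes higher, of 72 and 71 channel genes, where 4.62% and 4.57% of all genes were higher. Centring over the compared genes left 2 higher and 2 lower of 71, where 3.52% of all genes were higher and 3.94% lower. Without a filter the counts for TS minus Ct were 7 higher and 1 lower of 125, with Kcnh1 (0.74) added, where 4.64% of all genes were higher and 1.95% lower. With a filter at the 50th percentile 0 of 26 were lower, against 3.27% of all genes. At 2-fold, TS minus Ct had 2 higher of 71, against 1.37% of all genes. DN minus TS had 2 higher and 5 lower, against 1.2% and 1.74% of all genes. Class medians moved by over 0.1 as follows; the cause was not tested beyond the change in members that a filter makes. Sodium channel genes in DN minus TS had -0.58 as reported, over 6 genes. Under quantile normalization (-0.35) and with the mean of probe sets (-0.40) a further gene passed the filter, and the median was over 7 genes. Sodium channel genes had 0 without a filter, -0.69 at the 50th percentile and -0.46 centred over the compared genes. In TS minus Ct they had 0.26 as reported, 0 without a filter, 0.12 at the 50th percentile and 0.13 centred, and in DN minus Ct -0.31 at the 50th percentile. Chloride channel genes in DN minus Ct had 0 without a filter. At the 50th percentile calcium channel genes had 0.46 in TS minus Ct and -0.16 in DN minus TS, and potassium channel genes -0.16 in DN minus TS. Centred over the compared genes, potassium and calcium channel genes had -0.13 in TS minus Ct and 0.13 in DN minus TS, and chloride channel genes 0.14 and 0.13. Without equal values, calcium channel genes had 0.25 in TS minus Ct and potassium channel genes -0.20 in DN minus TS. Signal near or below the filter limit, as for Kcnj13 in DN, limits how well the size of a difference is known.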

Other observations

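Several channel genes that differed lie next to another channel gene or to the gene of a partner subunit. The order is that of the protein-coding genes of the GRCr8 table. In DN minus Ct the neighbours named here gave differences of smaller size, with the same sign for Kcna5 and Kcna1 and for Kcnj11 and Abcc8. Scn4b (-3.99 in DN minus Ct) lies beside Scn2b, which gave 0.26. Kcnj2 (-1.49) lies beside Kcnj16, equal in DN and Ct. Kcna5 (-1.37) lies beside Kcna1 (-0.37), which is followed by Kcna6, equal in DN and Ct. Kcnj8 (-0.87) lies beside Abcc9, equal on all arrays, and Kcnj11 (-0.60) beside Abcc8 (-0.31). Kcna1, Kcna6, Kcnj16 and Scn2b were near or below the filter limit, where differences are less certain. The equal values of Kcnj16, Kcna6 and Abcc9 are no evidence of equal expression.

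Kcnh1, a voltage-gated potassium channel gene of the nervous system and of proliferating cells, read 5.26 in DN, 6.003 in TS and 5.26 in Ct, and was the only one of the 54 genes below the filter with a difference past 1.5-fold (TS minus Ct 0.74). Kcnk16 and Kcnk5 share a probe set, which read 6.50 on all 3 arrays, and Scn3a and Scn9a share one that read 3.99 in DN, 3.91 in TS and 4.04 in Ct. The 3 channel genes with a further probe set, Kcnip1, Kcnip2 and Scn3a, had equal values on all arrays in the dimmer of both.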
